A study of Mus musculus with 23 samples.

Results

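Ccnd1, Ccnd2 and Ccnd3, the 3 genes of the mouse that encode D-type cyclins, were followed across 4 states of pluripotent cells in culture. They were found by symbol among the 11494 genes that the platform's table names, and all 8 probes that carry one of the 3 symbols were used, of 45281 probes on the array. RNA from cultured cells was measured on Illumina BeadChips of the Mouse WG-6 v2.0 design, with 1 array for each line in each state. rESCs are ESC-like cells obtained by moving epiSCs on feeders into medium with LIF and fetal calf serum. They came from the Blimp1-null lines J2.3, BL2 and BL6 and from the heterozygous lines BL3 and BL7. epiSCs come from the epiblast of the implanted embryo and were grown on fibroblast feeders with activin A and bFGF, from the null lines BL2 and BL6 and the heterozygous lines BL3, BL4 and BL7. ESCs in 2i/LIF, which holds a MEK inhibitor (PD0325901), a GSK3 inhibitor (CHIR99021) and LIF, and ESCs in serum with LIF were the same 6 lines, null JAG1, JAG2 and B12 and heterozygous PAN1, PUM3 and CHE4. A single array held mouse embryonic fibroblasts (MEFs), wild type for Blimp1 and the cell type used as feeders. All groups carry the label of a mixed C57Bl6/CBA/129 background, although the methods name the MF1 strain as the source of MEFs, so that the strain of the MEF array is uncertain. The heterozygous controls themselves carry 1 mutant Blimp1 allele. The epiSC and rESC lines are different lines from the ESC lines, so that line and state cannot be told apart in comparisons between these sets. The p-values measure the spread between lines.

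D-type cyclins bind the kinases Cdk4 and Cdk6 in the G1 phase of the cell cycle. The complexes phosphorylate the retinoblastoma protein and its relatives, which releases E2F factors to switch on genes of DNA replication, and inhibitors of the p16 and p21 families hold them back. Mitogens acting through ERK raise Ccnd1, and mouse ESCs are known for a short G1 phase in which this switch is only loosely controlled. Ccnd1 lies on chromosome 7 (144929931 to 144939831), Ccnd2 on chromosome 6 (127125162 to 127152188) and Ccnd3 on chromosome 17 (47505051 to 47599689), as RefSeq places them on GRCm38.p6.

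Levels are log2 signals after background correction and quantile normalization over all 23 arrays, and levels of different probes are not set against each other. Each gene is represented by its brightest probe. A probe counts as detected at a deposited detection p under 0.01, and in each comparison a change was called at an adjusted p under 0.01 over all probes tested. Across the arrays 12197 to 14599 probes were detected, with a median signal of 68.9 to 107. The 5 core pluripotency markers were detected on every pluripotent array and none of them in MEFs. The epiSC array of BL6 stood apart, with 10 of 10 naive ESC markers detected against 3 to 8 in the other epiSC lines, and the J2.3 rESCs had the lowest summed signal of these markers among rESCs (6226, against 16607 to 19190 in the others). The changes of the cyclin D genes between states, the counts of probes called and the tests of unequal change were also computed without these arrays. The gene lists, the likeness of patterns and the interactions were not.

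The D-type cyclin genes did not follow a shared pattern. Ccnd2 was the gene that varied most between states, with state means that spanned 4.78 log2 units, against 1.30 for Ccnd1 and 0.63 for Ccnd3. The span of Ccnd2 rests in part on 2i/LIF, where 4 of 6 cultures did not detect it, and was 2.41 over the other states and 2.87 over all 4 with the deposited value table as input. Ccnd2 was highest in epiSCs and at the edge of detection in 2i/LIF, Ccnd1 was highest in epiSCs and lowest in serum, and Ccnd3 was lowest in epiSCs and close to level elsewhere. The plot of levels by state shows these orders with every array.

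**Figure D1:**
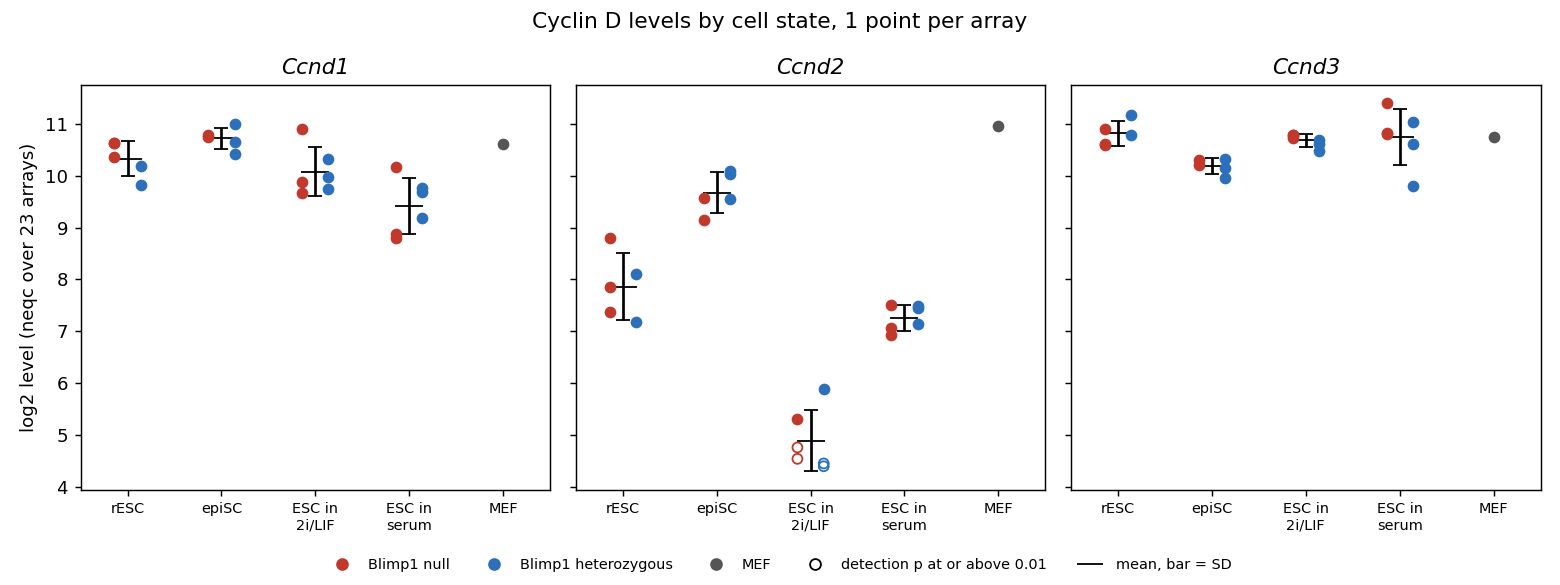
Log2 level of Ccnd1, Ccnd2 and Ccnd3 (brightest probe, vertical axis) on each array, by cell state (horizontal axis); red points are Blimp1-null lines, blue points heterozygous lines, grey the MEF array, open points arrays on which the probe was not detected, and bars the mean and SD over lines. Ccnd2 averages 9.68 in epiSCs and 4.89 in 2i/LIF, while the state means of Ccnd3 all lie between 10.19 and 10.82.

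Ccnd1 encodes cyclin D1, the member best known as a sensor of mitogens. Its level was 10.63, 10.37, 10.63, 9.82 and 10.19 in the J2.3, BL2, BL6, BL3 and BL7 rESCs, against 10.74, 10.79, 10.42, 10.65 and 10.99 in the BL2, BL6, BL3, BL4 and BL7 epiSCs. It ran between 9.67 and 10.90 in 2i/LIF (median 9.93), against 8.81 to 10.17 in serum (median 9.44). The ranges of neighbouring states overlapped, and only epiSCs lay above every ESC culture in serum. MEFs had a level of 10.62, and 7 of the 22 pluripotent arrays were above it.

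Between epiSCs and ESCs in serum Ccnd1 rose by 1.29 log2 units (2.45-fold, SE 0.23, adjusted p = 5.3e-04 from limma). No other comparison of Ccnd1 passed the threshold. ESCs in 2i/LIF were 0.67 above ESCs in serum (SE 0.26, adjusted p = 0.048), and within lines the difference was positive in 5 of 6, with CHE4 at -0.021 and JAG1 highest at 1.07. Because the 6 lines are the same, they can be taken as pairs, and with the line as a block the adjusted p was 0.0036 (range over 18 alternatives 0.0036 to 0.110). In rESCs Ccnd1 was 0.91 above ESCs in serum (SE 0.25, adjusted p = 0.057) and 0.38 below epiSCs (SE 0.17, adjusted p = 0.10), and it was lower in rESCs than in the epiSCs of the same line in 4 of 4 lines. epiSCs were 0.64 above 2i/LIF (95% interval 0.20 to 1.08, adjusted p = 0.016), and 0.81 above without the B12 array in 2i/LIF (adjusted p = 5.2e-04). rESCs differed from ESCs in 2i/LIF by 0.25 (95% interval -0.24 to 0.74, adjusted p = 0.42).

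The order of the Ccnd1 means was thus epiSC, rESC, 2i/LIF and serum, in which no 2 neighbours differed past the threshold unless 2i/LIF and serum were paired by line. The other 2 probes of Ccnd1, detected on all 22 pluripotent arrays, had Pearson's r of 0.97 and 0.90 with the brightest over these arrays. The dimmest, ILMN_2669793, put rESCs 0.19 above epiSCs (adjusted p = 0.37), where the brightest put them below. Within lines it was higher in rESCs in BL2 (0.44), BL6 (0.23) and BL7 (0.051) and lower in BL3 (-0.023). Both of the other probes rose in epiSCs against ESCs in serum (by 1.37 and 0.84, adjusted p = 1.4e-04 and 0.0048 from limma). Over 2i/LIF epiSCs were 0.69 higher with ILMN_2601471 (adjusted p = 0.011) and 0.081 higher with ILMN_2669793 (adjusted p = 0.73).

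Ccnd2 encodes cyclin D2. Its level was 8.80, 7.37, 7.86, 7.18 and 8.11 in the J2.3, BL2, BL6, BL3 and BL7 rESCs, against 9.57, 9.14, 9.55, 10.03 and 10.09 in the BL2, BL6, BL3, BL4 and BL7 epiSCs. In 2i/LIF it ran between 4.40 and 5.89 (median 4.65), against 6.93 to 7.52 in serum (median 7.30). All epiSC lines were above all rESC lines, and all serum cultures were above all cultures in 2i/LIF. In 2i/LIF the probe was detected in 2 of 6 lines only, CHE4 and JAG2, which hold the 2 highest values there, so that changes against 2i/LIF depend on signals near background. MEFs had a level of 10.96, above all 22 pluripotent arrays.

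Ccnd2 fell by 1.78 in rESCs against epiSCs (3.44-fold, SE 0.29, adjusted p = 6.6e-04 from limma), and its change was -2.14 when the J2.3 rESCs and the BL6 epiSCs were left out (adjusted p = 5.0e-05). It was lower in rESCs in 4 of 4 lines with both states, with changes between -1.28 in BL6 and -2.37 in BL3. In 2i/LIF it fell by 2.34 against serum (5.05-fold, SE 0.23, adjusted p = 4.4e-06), and the change lay between -1.60 and -3.06 in each of the 6 lines. Without background correction the change in 2i/LIF was -1.24, and with the deposited value table as input it was -0.99. The plot of paired lines shows the same direction in every line.

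epiSCs stood above ESCs in serum by 2.38 (5.20-fold, SE 0.18, adjusted p = 9.7e-07). Against 2i/LIF the difference was 4.72 in epiSCs (SE 0.26, adjusted p = 1.2e-08) and 3.03 in rESCs (SE 0.33, adjusted p = 2.9e-05). With the deposited value table as input these were 2.87 and 1.41. rESCs were 0.60 above ESCs in serum (95% interval 0.045 to 1.16, adjusted p = 0.16), and 0.37 above with the J2.3 rESCs left out (adjusted p = 0.25). The order of means was epiSC, rESC, serum and 2i/LIF, and rESC and serum were the only neighbours that did not differ past the threshold.

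Another Ccnd2 probe, ILMN_2700168, was called in the same 5 comparisons, and its r with the brightest was 0.99. The third, ILMN_1225932, is annotated to a different transcript record and was too rarely detected to be tested between states. It was detected in 4 of 5 epiSC lines and in MEFs, and on no array of rESCs, of ESCs in 2i/LIF or of ESCs in serum. In epiSCs its level ran between 4.71 and 6.13 (median 5.45), against 4.35 to 4.44 in rESCs.

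**Figure D2:**
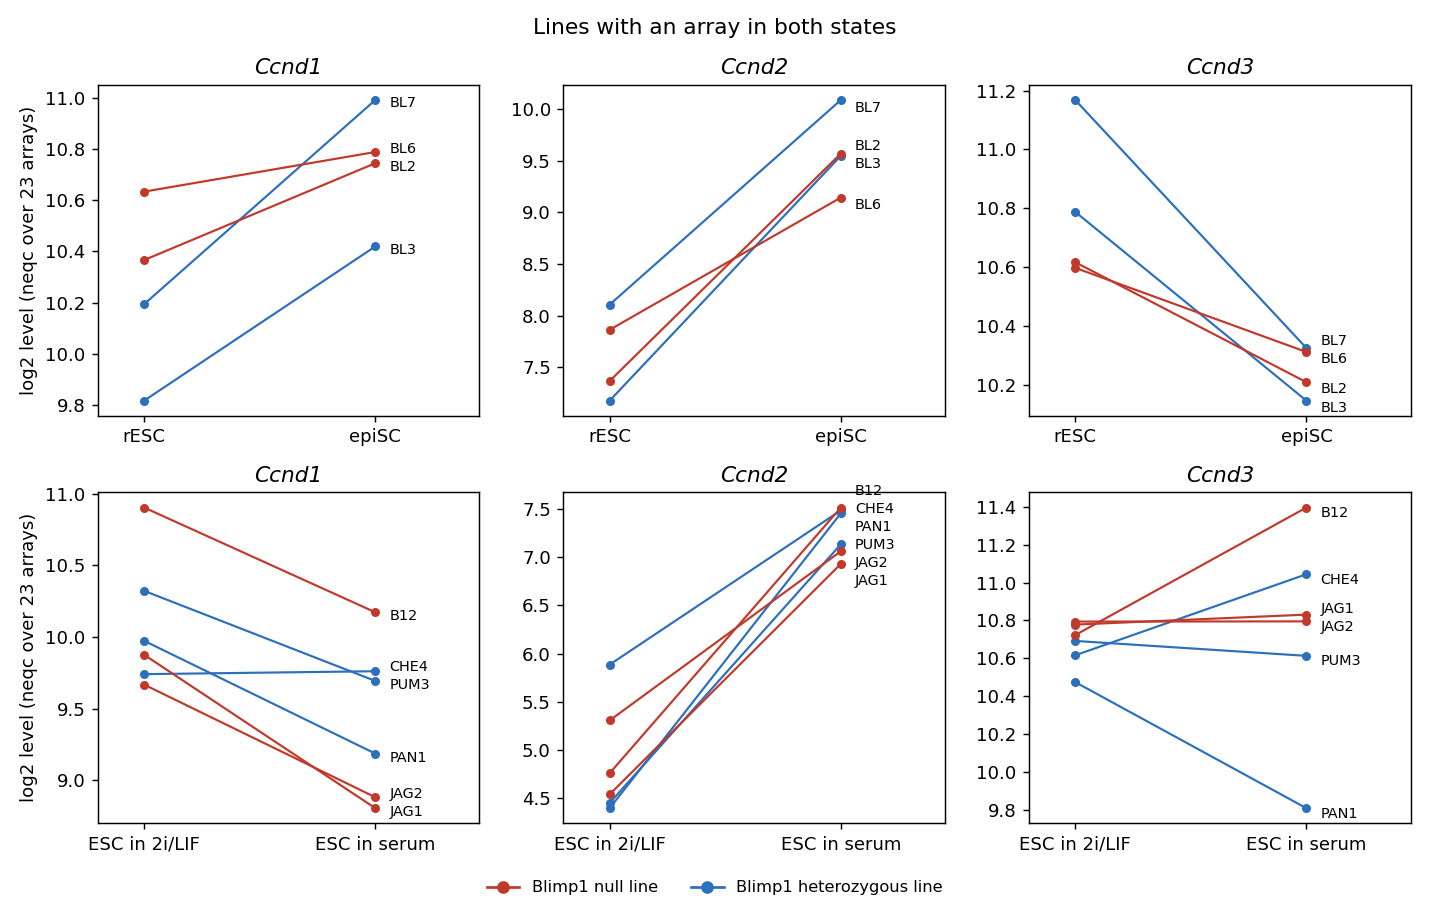
Log2 level (vertical axis, own scale in each panel) of the brightest probe of each cyclin D gene in lines with an array in both states: rESC and epiSC for 4 lines (top), ESC in 2i/LIF and in serum for 6 lines (bottom). Red lines are Blimp1-null and blue lines heterozygous. Ccnd2 is lower in rESCs in 4 of 4 lines and lower in 2i/LIF in 6 of 6, and Ccnd3 is higher in rESCs in 4 of 4 lines.

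Ccnd3 encodes cyclin D3. Its level was 10.91, 10.62, 10.60, 10.79 and 11.17 in the J2.3, BL2, BL6, BL3 and BL7 rESCs, against 10.21, 10.31, 10.15, 9.96 and 10.32 in the BL2, BL6, BL3, BL4 and BL7 epiSCs. In 2i/LIF it ran between 10.47 and 10.79 (median 10.71), against 9.81 to 11.40 in serum (median 10.81). epiSCs lay below every rESC line and every culture in 2i/LIF, while the serum cultures spread over both, with PAN1 below all epiSCs and B12 above all other arrays. The SD over lines was 0.12 in 2i/LIF and 0.53 in serum. MEFs, at 10.75, were exceeded by 9 of 22 pluripotent arrays.

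In rESCs Ccnd3 was 0.62 above epiSCs (1.53-fold, SE 0.14, adjusted p = 0.0045 from limma), and higher in 4 of 4 lines, by 0.29 in BL6 up to 0.84 in BL7. This call was lost without any 1 of 5 arrays (the BL3, BL4 or BL2 epiSCs and the BL3 or BL7 rESCs, adjusted p up to 0.014), with the line as a block over the 4 lines (0.54, adjusted p = 0.026; the range over 18 alternatives was 0.0020 to 0.026) and with the same 4 lines and no block (adjusted p = 0.021). epiSCs were 0.50 below ESCs in 2i/LIF (1.41-fold, SE 0.10, adjusted p = 0.0011), a call that was lost when all 22 pluripotent arrays were fitted together (-0.49, adjusted p = 0.031, range over 17 alternatives 2.0e-04 to 0.031). The difference between epiSCs and ESCs in serum was -0.56 (SE 0.23, adjusted p = 0.053), and it passed without the PAN1 culture in serum (-0.75, adjusted p = 0.0017).

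Ccnd3 did not pass between 2i/LIF and serum (-0.068, 95% interval -0.51 to 0.38, adjusted p = 0.81), where 2 lines were higher and 4 lower. Nor did it pass between rESCs and ESCs in serum (0.066, 95% interval -0.45 to 0.58, adjusted p = 0.89) or between rESCs and 2i/LIF (0.14, 95% interval -0.13 to 0.40, adjusted p = 0.42). The order of means was rESC, serum, 2i/LIF and epiSC, and only the last neighbours differed past the threshold. The other probe, ILMN_1246473, annotated to another transcript of the gene, had an r of 0.89 with the brightest. It put rESCs 0.68 above epiSCs (adjusted p = 0.017) and epiSCs 0.43 below 2i/LIF (adjusted p = 0.016), so that neither call was made with it. Within lines this probe was higher in rESCs than in epiSCs in BL3, BL7 and BL2, and lower in BL6 (-0.23), unlike the brightest probe.

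Set against all probes tested, 2 of 3 cyclin D genes were called between rESCs and epiSCs, where 23.2% of all probes were, and 0 of 3 between rESCs and ESCs in serum, where 0.193% were. At an unadjusted p under 0.05 in limma, Ccnd1 and Ccnd2 passed in the second of these (2 of 3), as did 26.2% of all probes. Between 2i/LIF and serum 1 of 3 was called (31.1% of all probes), between epiSCs and ESCs in serum 2 of 3 (37.1%), between epiSCs and 2i/LIF 2 of 3 (43.9%) and between rESCs and 2i/LIF 1 of 3 (18.7%). With 3 genes, these counts do not tell the family from other genes.

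**Figure D3:**
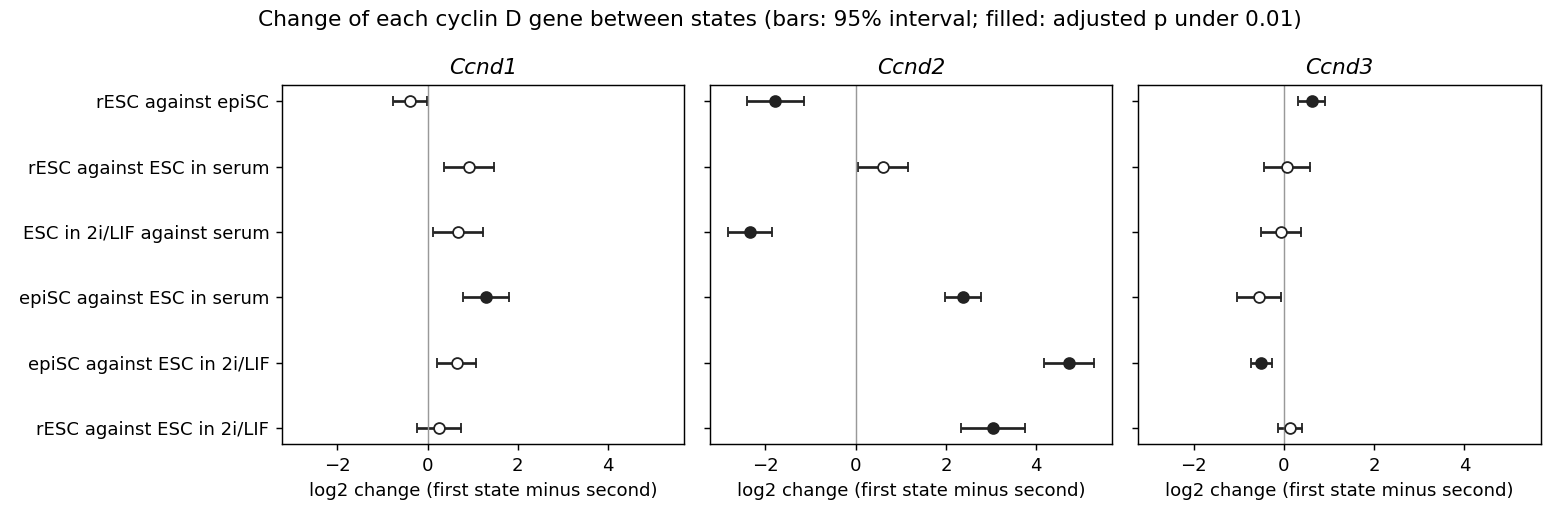
Log2 change (horizontal axis, first-named state minus second) of each cyclin D gene in 6 comparisons, with 95% intervals; filled points have an adjusted p under 0.01. Ccnd2 runs between -2.34 and 4.72, whereas all changes of Ccnd3 lie between -0.56 and 0.62.

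Whether the genes changed by unequal amounts was tested on the difference between 2 genes within each array, with an exact permutation test (two-sided, 18 tests, Benjamini-Hochberg). Between rESCs and epiSCs the means of Ccnd1 and Ccnd2 were lower in rESCs, whereas that of Ccnd3 was higher. The changes differed by -2.44 (Ccnd2 minus Ccnd3), 1.42 (Ccnd1 minus Ccnd2) and -1.02 (Ccnd1 minus Ccnd3). Each of these differences had an exact p of 0.0079, the smallest that 5 against 5 arrays allow (adjusted p = 0.011). Between 2i/LIF and serum Ccnd1 and Ccnd2 moved apart by 3.04 (exact p = 0.0022, adjusted p = 0.0078), and Ccnd1 and Ccnd3 by 0.73 (exact p = 0.032, adjusted p = 0.042). In epiSCs Ccnd2 rose more than Ccnd1, with a difference (Ccnd1 minus Ccnd2) of -1.11 over serum cultures and -4.15 over 2i/LIF (each exact p = 0.0043, adjusted p = 0.0078). For rESCs and ESCs in serum, the change of Ccnd1 exceeded that of Ccnd3 by 0.84 (exact p = 0.035, adjusted p = 0.042). The changes of Ccnd1 against Ccnd2 (0.31) and of Ccnd2 against Ccnd3 (0.53) had adjusted p-values of 0.28 and 0.19. Between rESCs and 2i/LIF the changes of Ccnd1 and Ccnd3 differed by 0.11 (exact p = 0.67). These comparisons share arrays, and the test was run on the brightest probe of each gene only. Probes of the same gene can differ: between rESCs and epiSCs the brightest Ccnd1 probe changed by -0.38 and ILMN_2669793 by 0.19. The test treats arrays of the same line as independent. Permuted within the 6 lines in both media, each of the 3 pairs of genes moved apart in the same direction in 6 of 6 lines, with an exact p of 0.031, the smallest that 6 lines allow (adjusted p = 0.063). Within the 4 lines with rESCs and epiSCs the direction was the same in 4 of 4 for each pair, and the exact p cannot go below 0.125. Without the J2.3 rESCs and the BL6 epiSCs, the changes of Ccnd1 and Ccnd3 between rESCs and ESCs in serum differed by 0.79 (adjusted p = 0.095). Sizes that involve Ccnd2 in 2i/LIF depend on signals near background. With the deposited value table as input, Ccnd1 and Ccnd2 moved apart by 1.59 between 2i/LIF and serum, and their difference was -2.28 between epiSCs and 2i/LIF and -0.68 between epiSCs and ESCs in serum (adjusted p = 0.024).

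Fibroblast genes moved with some of these changes, and the part of feeder RNA in the results was not tested. In bulk RNA, fewer cells of a type and less RNA per cell cannot be told apart. Of 23 fibroblast markers with a probe, all detected in MEFs, 14 to 18 were detected on each rESC array, 12 to 18 in epiSCs, 3 to 6 in 2i/LIF and 14 to 16 in serum. Their summed signal over background was 4855 to 11110 in rESCs, 2864 to 3994 in epiSCs, 199 to 297 in 2i/LIF and 5472 to 7537 in serum, with 70438 in the MEF array. Col5a2, Pdgfrb and Cdh11 were detected on no array of any pluripotent state.

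As a share of the MEF signal, Ccnd2 had 10.3% to 22.6% in rESCs, 28.5% to 62.9% in epiSCs, -0.038% to 2.80% in 2i/LIF and 6.27% to 11.9% in serum. The median share over the 23 markers was 6.71% to 11.8% in rESCs, 2.66% to 5.19% in epiSCs, 0.303% to 0.778% in 2i/LIF and 4.05% to 8.36% in serum. In epiSCs the Ccnd2 share was 7.91 to 17.9 times the marker share, against 1.40 to 2.42 times in rESCs and 1.17 to 1.67 times in serum. In 2i/LIF, where most cultures did not detect Ccnd2, the ratio ran between -0.12 and 5.53. The marker signal was higher in rESCs than in epiSCs, whereas Ccnd2 was lower in rESCs, and both were lower in 2i/LIF than in serum. Single markers spread widely: of the 23, the number with a median share above that of Ccnd2 was 2 in rESCs, 1 in epiSCs (the calcium-binding protein gene S100a4), 12 in 2i/LIF and 9 in serum. Ccnd1 had 31.8% to 156% and Ccnd3 51.4% to 229% of the MEF signal on the 22 arrays, above the median marker share on each, while S100a4 alone had a median share of 71.7% in rESCs and 63.0% in serum.

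**Figure D4:**
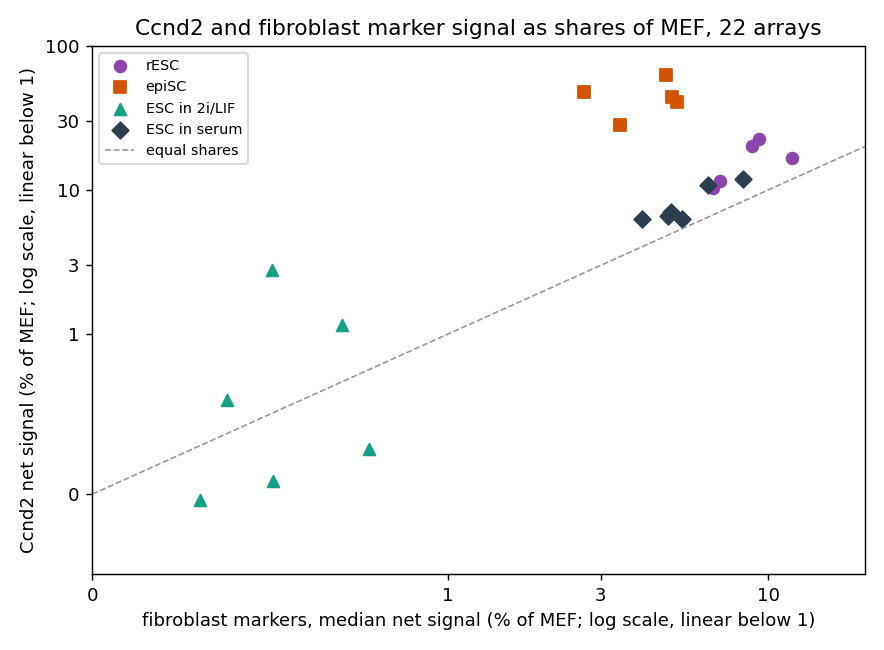
Net signal of Ccnd2 as a percent of that in MEFs (vertical axis) against the median over 23 fibroblast markers (horizontal axis) on each of the 22 pluripotent arrays; both axes are logarithmic above 1 and linear below, and the dashed line marks equal shares. The 5 epiSC arrays lie at 28.5% to 62.9% of MEF Ccnd2 with marker shares of 2.66% to 5.19%, while serum and rESC arrays lie closer to the line.

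Loss of Blimp1, a transcriptional repressor encoded by Prdm1, was compared with the heterozygous state in each culture. Prdm1 itself is not analysed here. No cyclin D gene was called between null and heterozygous lines in rESCs, epiSCs, 2i/LIF, serum or over all 4 states by limma. The background was 0% of all probes in each of these except epiSCs, where 0.404% were called. No gene, by its brightest probe, had an unadjusted p under 0.05, a cut that 4.82% of all probes passed in rESCs, 16.1% in epiSCs, 5.48% in 2i/LIF, 4.49% in serum and 7.66% over all states. Of the other probes only ILMN_1225932 of Ccnd2 passed it, in epiSCs, with a difference of -0.69 (95% interval -1.32 to -0.065, adjusted p = 0.27). Ccnd2 in 2i/LIF was not tested because of its low detection.

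The differences closest to the threshold by unadjusted p were Ccnd2 in epiSCs and Ccnd1 in rESCs. Ccnd2 averaged 9.36 ± 0.30 in null epiSCs (SD, n = 2) and 9.89 ± 0.30 in heterozygous epiSCs (SD, n = 3), with a fitted difference of -0.51 (95% interval -1.03 to 0.014, adjusted p = 0.32). The null epiSCs include BL6, the array that stood apart, with the lowest level (9.14, against 9.57 in BL2). With 1 array left out this difference ran between -0.72 and -0.30. Ccnd1 averaged 10.54 ± 0.15 in null rESCs (SD, n = 3) and 10.01 ± 0.27 in heterozygous rESCs (SD, n = 2), a difference of 0.52 (95% interval -0.037 to 1.08, adjusted p = 1.00). Over all states, with the line as a random block, the null lines differed by 0.11 for Ccnd1 (95% interval -0.26 to 0.48), by -0.086 for Ccnd2 (-0.54 to 0.36) and by 0.16 for Ccnd3 (-0.13 to 0.46).

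Nor was there a call on whether a change between states differed by genotype. The interaction term of Ccnd2 between rESCs and epiSCs was 0.89 (95% interval -0.39 to 2.16), and that of Ccnd1 was 0.45 (-0.22 to 1.11). Between 2i/LIF and serum the terms were 0.40 for Ccnd1, 0.14 for Ccnd2 and -0.36 for Ccnd3. All 6 terms had an adjusted p of 0.998, and 0% of all probes were called for either interaction.

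Of the 2 kinase partners of D cyclins, Cdk4 was detected on all 22 arrays and was called in 1 of 6 comparisons, with epiSCs 0.48 above ESCs in serum (SE 0.13, adjusted p = 0.0091). Cdk2, the partner of E-type cyclins, was called in 3, being 0.78 higher in 2i/LIF than in serum (adjusted p = 1.7e-04), 0.72 lower in epiSCs than in 2i/LIF (adjusted p = 2.1e-04) and 0.85 lower in rESCs than in 2i/LIF (adjusted p = 4.3e-04). Cdk6 was detected on 1 of 22 pluripotent arrays, an epiSC line, and not in MEFs, and was not tested.

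Among the CDK inhibitors the largest changes were those of Cdkn1c, which encodes p57. It fell by 2.73 in rESCs against epiSCs, fell by 2.49 in 2i/LIF against serum, and rose by 2.76 in epiSCs against ESCs in serum and by 5.21 against 2i/LIF (adjusted p between 1.5e-08 and 2.6e-04), in each case in the direction of Ccnd2. Cdkn2a, the locus of p16 and p19ARF, went the other way, 1.54 higher in rESCs than in epiSCs and 1.70 lower in epiSCs than in ESCs in serum, with detection in 2 of 5 epiSC lines. Cdkn1a, which encodes p21, was 0.91 higher in 2i/LIF than in serum (adjusted p = 0.0092) and 1.65 lower in epiSCs than in 2i/LIF (adjusted p = 8.0e-07).

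E2F target genes, most of them replication factors, were lower in epiSCs than in 2i/LIF for 9 of the 16 tested and higher for 0, with a median change of -0.52. Over all 8393 genes tested there, 2079 were higher and 1787 lower, with a median of -0.0038. Examples are Cdc6, which loads the replicative helicase (-0.86), Orc1 of the origin recognition complex (-0.84), the thymidine kinase gene Tk1 (-0.79) and the phosphatase gene Cdc25a (-0.77).

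In 2i/LIF against serum 5 of 16 E2F targets were higher and 0 lower (median 0.38), among 7996 genes of which 1277 were higher and 1358 lower (median 0.019). The 4 largest rises were those of Rrm2, a subunit of ribonucleotide reductase (1.14), Cdc6 (0.92), the helicase subunit gene Mcm5 (0.66) and the thymidylate synthase gene Tyms (0.59). Between rESCs and epiSCs 3 of 16 were higher and 0 lower, the helicase subunits Mcm2 (0.68), Mcm6 (0.66) and Mcm3 (0.63), with a median of 0.22 over the list and -0.025 over 8168 genes, of which 881 were higher and 1175 lower. In epiSCs against ESCs in serum Rrm2 was higher (1.02) and Cdc25a (-0.59) and Cdt1 (-0.45) lower, of 15 tested, where 1746 of 8402 genes were higher and 1568 lower. Between rESCs and ESCs in serum 0 of 16 were called, where 16 of 8148 genes were.

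**Figure D5:**
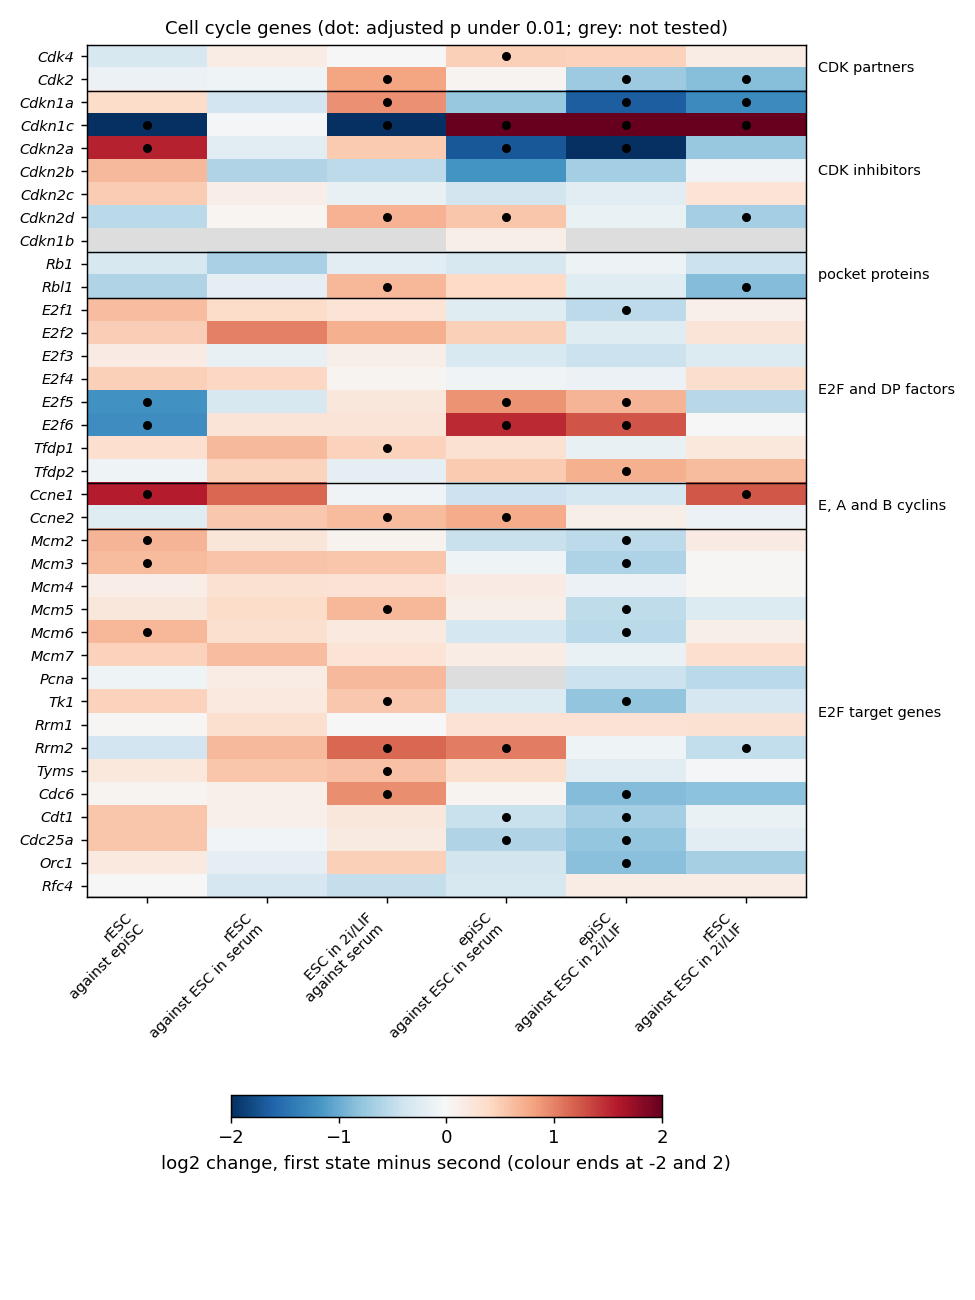
Log2 change (colour, first-named state minus second, ending at -2 and 2) of 37 cell cycle genes in 6 comparisons (columns), grouped by list (rows); dots mark an adjusted p under 0.01 and grey cells were not tested. Of the E2F targets, 9 are lower in epiSCs than in 2i/LIF and 5 higher in 2i/LIF than in serum, while Cdkn1c passes in every comparison except rESCs against ESCs in serum.

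Of the E2F family, E2f6, which encodes a repressor, was 1.24 lower in rESCs than in epiSCs (adjusted p = 5.0e-05) and 1.49 higher in epiSCs than in ESCs in serum (adjusted p = 2.5e-06), and E2f5 moved in the same directions (-1.21 and 0.89). Of the 2 pocket protein genes tested, Rbl1 was 0.66 higher in 2i/LIF than in serum (adjusted p = 2.7e-04). Ccne1, which encodes cyclin E1, the next cyclin in G1, was 1.56 higher in rESCs than in epiSCs (adjusted p = 7.1e-05) and 1.23 higher than in 2i/LIF (adjusted p = 7.7e-05). The A and B cyclins on the list are not analysed here.

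In 2i/LIF against serum, 3 of 12 genes tested of the pathways upstream of D cyclins were higher and 3 lower, among 7996 genes of which 1277 were higher and 1358 lower. The 4 largest changes were falls of the ERK response genes Dusp4 (-3.11) and Fos (-2.54) and rises of the WNT target genes Sp5 (4.79) and Notum (3.77), with adjusted p between 1.5e-09 and 1.9e-04. Sp5 and Notum were each detected in 1 of 6 cultures in serum, and Dusp4 in 3 of 6 in 2i/LIF, so that the sizes of these changes depend on signals near background. Among ERK response genes that were not called, Etv5 was 0.99 higher in 2i/LIF (adjusted p = 0.015 from limma) and Etv4 0.88 lower (adjusted p = 0.015). Ccnd1, listed in textbooks as a target of both pathways, was 0.67 higher there, short of the threshold without pairing (adjusted p = 0.048) and past it with the line as a block (adjusted p = 0.0036). In rESCs against epiSCs, where 881 of 8168 genes were higher and 1175 lower (median -0.025), 5 of 13 were higher and 0 lower (median -0.10). The 5 include the ERK response genes Etv4 (2.18), Etv5 (1.90) and Spry4 (1.86) and Notum, which was at least 2.41-fold higher, a bound because it was detected in no epiSC line. Spry4 was detected in 1 of 5 epiSC lines, so that the size of its change depends on signals near background. Dusp6, another ERK response gene, was 0.51 lower in rESCs, short of the threshold (adjusted p = 0.016 from limma). In epiSCs against 2i/LIF 3 of 12 were higher and 4 lower (2079 and 1787 of 8393 genes), with Dusp6 (3.15) and Dusp4 (2.25) among the higher ones and Notum, at least 11.3-fold lower, and Etv5 (-1.76) among the lower ones. Myc, named here after its values were seen, was detected on 2 of 22 pluripotent arrays and was not tested.

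Likeness of pattern was measured as Pearson's r over the 22 pluripotent arrays with each of 7934 other genes that were detected on at least 11 of them. The arrays fall into 4 states and share lines, so that r is a description. Ccnd2 was most like Igf2 (0.96), Pea15a (0.96), Cnrip1 (0.96), Bmp1 (0.95) and Mlf1 (0.95), and most opposed to Cbs (-0.97), Alox12 (-0.96) and Eif2b5 (-0.96). Igf2, an imprinted growth factor gene, had a level of 9.53 ± 0.39 in rESCs, 12.05 ± 0.68 in epiSCs, 5.40 ± 0.27 in ESCs in 2i/LIF and 9.31 ± 0.27 in ESCs in serum (SD, n = 5, 5, 6 and 6), and 14.37 in MEFs.

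Ccnd1 was most like Ppm1d (0.87), Sar1a (0.87), Thtpa (0.86), Faf2 (0.86) and Zcchc14 (0.86), and most opposed to Spast (-0.87), Mrps30 (-0.84) and Rad18 (-0.83). Ccnd3 was most like Aard (0.87), Tle5 (0.84), Mslnl (0.81), Cited4 (0.81) and Zmym3 (0.81), and most opposed to Trp53bp1 (-0.86), Mtch1 (-0.85) and Mtx3 (-0.82). Among the cyclin D genes themselves r was 0.38 for Ccnd1 and Ccnd2, -0.19 for Ccnd1 and Ccnd3 and -0.36 for Ccnd2 and Ccnd3.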

How the data were processed

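Expression was measured on 23 Illumina arrays. The authors deposited mean bead intensity per probe on a linear scale, with no background subtraction or normalization, and a detection p-value beside each deposited intensity. Their value table holds log2 values made by the authors with lumi (variance-stabilizing transformation and quantile normalization) and served as an alternative, since lumi was not installed. A further 2 columns of the signal table matched no sample and were not used.

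Signals were corrected and quantile-normalized with neqc (limma 3.58.1, R 4.3.3, offset 16) separately for each comparison, with levels taken from all 23 arrays together. Probes with a detection p under 0.01 on at least n arrays, n being the size of the smaller group, were fitted with limma, with p-values adjusted by Benjamini-Hochberg over all probes tested and a threshold of 0.01. On simulated data the estimates came close to the changes put in, false calls were few, and small changes were often not called. The simulation drew independent noise for each probe and array. It therefore does not bear on arrays that share a line or on signals near background. Exact permutation tests used SciPy 1.17.1. Precision is limited by the number of arrays.

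For a share of the MEF signal, the median signal of probes with a detection p at or above 0.05 on the same array was subtracted first. A fold is a bound if the dimmer group never detected the probe: the mean of the brighter group is set against, per array of the dimmer group, the lowest signal among detected probes or the probe's own if higher.

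Arrays of the same cell line pair 2i/LIF with serum (6 lines) and rESCs with epiSCs (4 lines). Deviations from the group means correlated within lines at 0.088 to 0.47 between media and at -0.13 to 0.54 between rESCs and epiSCs, lowest for BL6. Not every array correlated best with its own line: JAG1 and B12 in 2i/LIF did so with PUM3 in serum, and the BL6 rESCs with the BL7 epiSCs. The members, lists and comparisons were chosen with earlier results of these data known. Genes named are the members, up to 4 called genes with the largest change in each list and comparison, Cdk2, Cdk4 and Cdk6, and the 5 genes most alike and 3 most opposed to each member. Alternatives were the authors' table, no background correction, no filter, an intensity trend, genotype as a covariate, a block for the line, other probes, all 22 pluripotent arrays together, and arrays left out. For unequal changes, permutation within lines and leaving out the J2.3 rESCs and BL6 epiSCs were added after seeing the data.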

Additional observations from a re-analysis of the deposited data

How the results depend on the processing

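Every call of Ccnd2 between states was made under every alternative run, as was the call of Ccnd1 between epiSCs and ESCs in serum. Of 156 values of the 3 genes under other settings, 148 kept direction and side of the threshold, and of 198 with 1 array left out, 188 did. The change of Ccnd3 between rESCs and epiSCs lost its call with 22 arrays fitted together (0.63), with probe ILMN_1246473 (0.68), and over the 4 lines with both states with the line as a replicate block (0.54) or without it (0.54), and with 1 array left out it ran between 0.53 and 0.67. Ccnd3 between epiSCs and 2i/LIF lost it with 22 arrays together (-0.49) and with ILMN_1246473 (-0.43). Ccnd1 between rESCs and epiSCs turned to 0.19 with ILMN_2669793, and Ccnd1 between 2i/LIF and serum passed with the replicate block (0.67). Set against the same lines without it, the block changed no other call between states of these genes. The cause of these changes was not tested.

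With 1 array left out, Ccnd1 ran between 0.56 and 0.81 for epiSCs against 2i/LIF, and Ccnd3 between -0.75 and -0.43 for epiSCs against ESCs in serum, between -0.26 and 0.065 for 2i/LIF against serum and between -0.12 and 0.20 for rESCs against ESCs in serum. Null against heterozygous lines, Ccnd1 ran between -0.25 and 0.38 in 2i/LIF and between -0.049 and 0.22 in epiSCs, and Ccnd2 between -0.10 and 0.84 in rESCs and between -0.20 and 0.019 over all states. The unequal changes kept their side of an adjusted p of 0.05 in the authors' table in all 18 tests. There were 2 alternatives chosen after seeing the data. Permuting within lines (a replicate block) left 6 above 0.05, which was fixed in advance, since their adjusted p cannot go below 0.063 with so few lines. The differences were 1.47, -1.03 and -2.50 for rESCs against epiSCs and 3.04, 0.73 and -2.30 for 2i/LIF against serum (Ccnd1 minus Ccnd2, Ccnd1 minus Ccnd3 and Ccnd2 minus Ccnd3). Leaving out the J2.3 rESCs left Ccnd1 minus Ccnd3 above 0.05 for rESCs against ESCs in serum (0.79).

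The count of probes called between rESCs and ESCs in serum was 26, and it was 5 with no filter, 9 with genotype as a covariate, 661 with 22 arrays together, 494 when B12 in serum was left out, 92 when J2.3 was, and 3 to 12 when a different single array was. Ccnd2 was detected in 2 of 6 cultures in 2i/LIF, which limits the size of its changes against that state.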

Other observations

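Genes of cyclin D turnover also differed between states. Fbxw8, a ubiquitin ligase subunit known to target cyclin D1, fell by 1.83 in rESCs against epiSCs (adjusted p = 3.3e-05 from limma), and was 2.46 higher in epiSCs than in ESCs in serum (adjusted p = 4.4e-07) and 0.86 higher in 2i/LIF than in serum (adjusted p = 2.2e-04). Gsk3b, the kinase that marks cyclin D1 for degradation, fell by 1.12 in rESCs against epiSCs (adjusted p = 6.5e-05), and was 1.29 higher in 2i/LIF than in serum (adjusted p = 2.2e-04) and 1.70 higher in epiSCs than in ESCs in serum (adjusted p = 3.9e-05). Of 8 genes of this list tested, 2 were higher and 2 lower in each of these 3 comparisons, where over all genes 881 were higher and 1175 lower of 8168 (rESCs against epiSCs), 1277 and 1358 of 7996 (2i/LIF against serum) and 1746 and 1568 of 8402 (epiSCs against ESCs in serum). Fbxw8 was detected in 1 of 6 cultures in serum. Levels of cyclin D protein are not analysed here.

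A single ESC line held the top rank in Ccnd1 in both media: B12, a null line, had the highest level in 2i/LIF (10.90) and in serum (10.17). Lower ranks were not all held: CHE4 came next in serum (9.76), whereas in 2i/LIF (9.74) only JAG2 (9.67) was lower. In Ccnd3 B12 was highest in serum (11.40) and not in 2i/LIF (10.72). No array was an outlier by Dixon's criterion in any of the 12 combinations of gene and state.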
